A study of Mus musculus with 6 samples.

Results

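The genes described here, called peroxisome genes below, are 53 mouse genes listed as peroxisome enzymes and peroxins. Among them, Vnn1 acts outside the peroxisome and Acot12 in the cytosol. All 53 genes were found by their listed symbols among the 55401 genes of the deposited count table, and matched to 1 row each. They comprise 13 peroxins, 11 enzymes of peroxisomal beta-oxidation, 6 other oxidases together with catalase, 5 membrane transporters and channels, 9 genes of acyl-CoA hydrolysis, carnitine transfer and coenzyme A turnover, 2 of alpha-oxidation, 3 of ether lipid synthesis, 2 proteases and 1 epoxide hydrolase. Gene expression was measured by poly(A) RNA sequencing of fresh liver from C57BL/6 mice, with 3 OP libraries and 3 HFCF libraries. The OP mice received okra polysaccharide, which is a complex sugar extracted from okra pods, and the labels name neither their diet nor a dose. The HFCF mice ate a diet rich in fat, cholesterol and fructose. Sex and age are not in the labels, which also do not say whether replicates came from different mice, so the p-values reflect only the spread among these libraries, and that spread may be technical.

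Peroxisomes are small organelles that hepatocytes hold in large numbers. Peroxins build the membrane, import enzymes from the cytosol and divide the organelle. The enzymes inside shorten very long and branched fatty acids, break down D-amino acids, glycolate and urate with oxidases that release hydrogen peroxide, and begin the synthesis of ether lipids and the last step of bile acid side chain cleavage. In mouse liver many of these genes are activated by the fatty acid receptor PPAR-alpha.

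The libraries held 50635853 to 61918541 counts in OP and 46459980 to 58822973 counts in HFCF. Levels are given as CPM, which are counts relative to a library size scaled by TMM. A count of 0 allows a level of up to 0.0472 to 0.0625 CPM (3 counts), which covers counting error only. Counts of 4 were more frequent than counts of 3 or 5 in all 6 libraries, so a read pair may carry several counts, and the totals would then overstate the depth. HFCF replicates 1 and 2 were more alike than any other pair within a group, with a chi-square of 46.2 per degree of freedom against 148 to 350. The share of counts in mitochondrially encoded genes was 7.77, 6.41 and 15% in OP replicates 1 to 3, and 22.3, 19.1 and 14.3% in HFCF replicates 1 to 3. OP replicate 3 was thus slightly above HFCF replicate 3, and the groups overlapped. Of 8 hepatocyte markers, the defining marker Alb was present at 28910 to 50270 CPM in OP and 15870 to 32980 CPM in HFCF. In bulk tissue, fewer cells of a type and less RNA per cell cannot be told apart.

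Of the 53 genes, 51 passed the low-count filter. Dao, a D-amino acid oxidase, and Acot5, an acyl-CoA thioesterase, had a count of 0 in every library. Tested with edgeR's quasi-likelihood method over all 17394 genes, 6 of the 51 were higher in OP at a Benjamini-Hochberg adjusted p under 0.05, which is 11.8% of them, against 3.26% of all tested genes. A single one, Ehhadh, was lower, which is 1.96% of the 51 against 3.47% of all tested genes. The genes that rose were Pex11a, Acaa1b, Vnn1, Nudt7, Tysnd1 and Hao2. Hao2 had 0 counts in every HFCF library and entered the tested set through its OP counts alone, and without it 5 of 50 were higher. Genes are said to have passed or not by this edgeR test, unless another tool is named. The fitted log2 fold change was above 0 for 42 of the 51, with a median of 0.36 against 0.02 over all tested genes. Without Hao2 it was above 0 for 41 of 50, with a median of 0.34. In 24 of the 51 (23 of 50 without Hao2) every OP library lay above every HFCF library, a pattern found in 15.8% of all tested genes. In 2 of the 51 every OP library lay below every HFCF library, a pattern found in 15.4% of all tested genes.

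**Figure D1:**
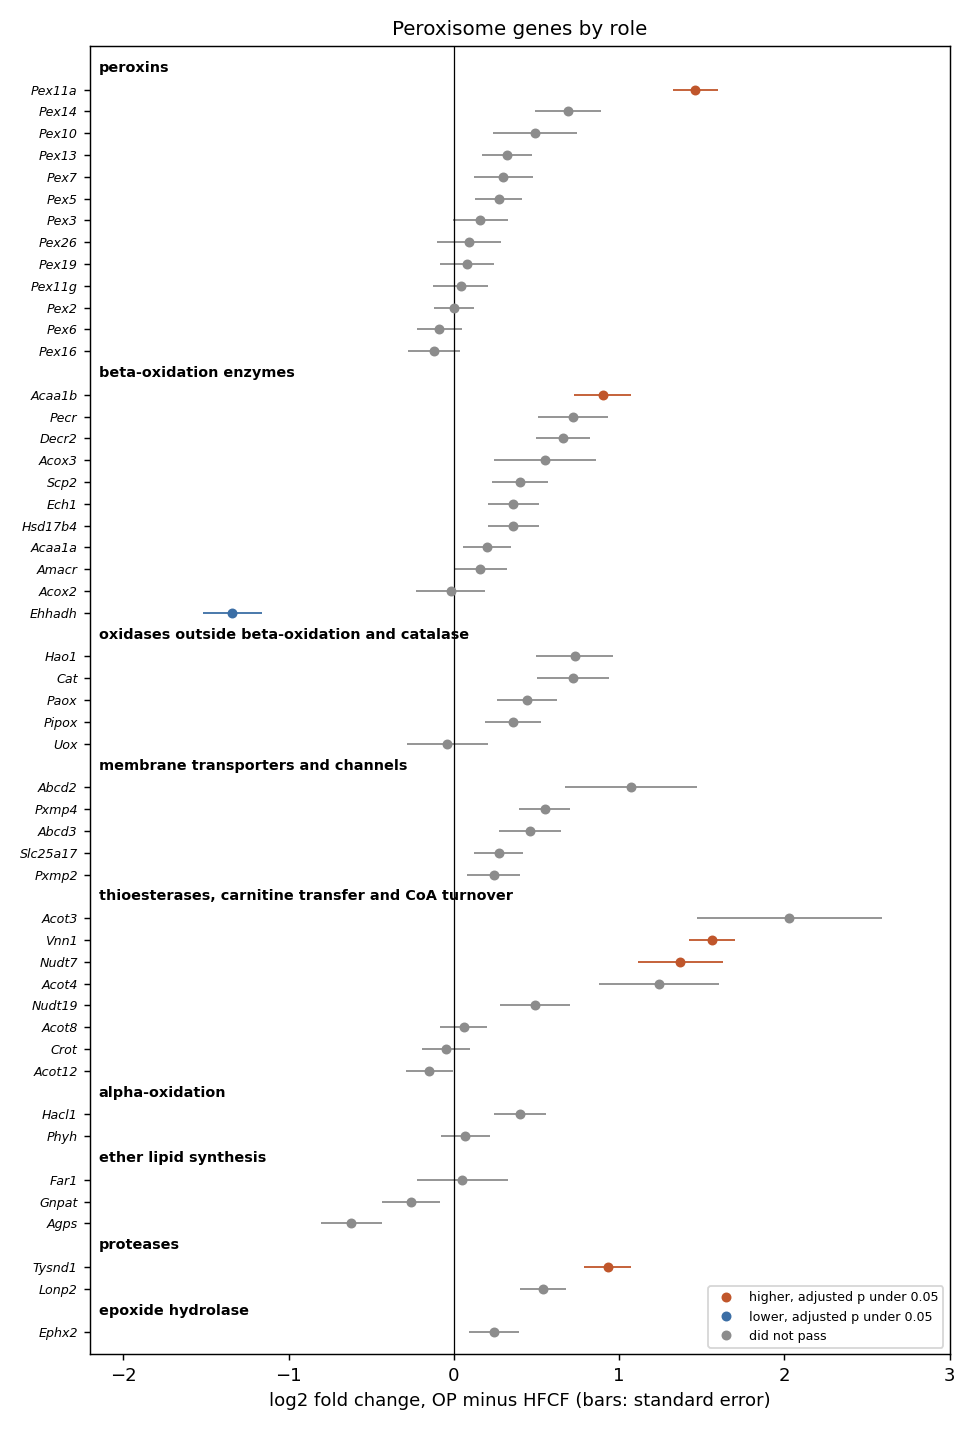
Log2 fold change (OP minus HFCF, x axis) of 50 tested peroxisome genes, in blocks by role, with bars for the standard error; Hao2 is left out because its HFCF libraries hold 0 counts. Pex11a, Acaa1b, Vnn1, Nudt7 and Tysnd1 lie to the right of 0 in colour, Ehhadh lies alone at -1.34, and most grey points of genes that did not pass lie to the right of 0.

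The libraries differed in how far apart they placed the groups. HFCF replicate 3 was the highest of the HFCF libraries for 38 of the 51 genes (74.5%), against 38.6% of all tested genes. OP replicate 3 was the lowest of the OP libraries for 35 of the 51 (68.6%), against 38.9% of all tested genes. Both held for 30 genes (58.8%), against 19.9% of all tested genes. The number of the 51 called higher was 3 without OP replicate 1, HFCF replicate 1 or HFCF replicate 2, 5 without OP replicate 2, and 10 without OP replicate 3 or HFCF replicate 3. In that order of libraries, the shares called higher among all tested genes were 0.477%, 0.283%, 0.186%, 1.75%, 3.55% and 3.35%. Hao2 is counted in each of these fits except without OP replicate 1. Without HFCF replicate 1 or 2 the genes called higher were Hao2, Pex11a and Vnn1. Ehhadh was called lower except without HFCF replicate 1 or 2, against 0.649%, 0.326%, 0.295%, 1.94%, 3.55% and 2.86% of all tested genes lower. The libraries numbered 3 were also left out of both groups, an alternative chosen after seeing the data. Then 23 were called higher, Hao2 among them, and 1 lower, against 9.65% and 7.13% of all tested genes. The part of the mitochondrial share in this pattern was not tested beyond a fit with that share as a covariate. With it, 3 genes were called higher and 1 lower, against 0.77% and 0.644% of all tested genes, and the median log2 fold change of the 51 was 0.10.

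The way counts were tested moved the number of calls more than the way they were scaled did. DESeq2 called 15 of the 51 higher and 2 lower (7.2% and 7.26% of all tested genes), and voom with quality weights called 24 higher and 2 lower (10.5% and 8.85%). Both called all 7 genes named above. With RLE scaling the count was 6 higher and 1 lower (2.92% and 3.53% of all tested genes), as it was with upper quartile scaling (2.87% and 3.86%), total counts (2.4% and 3.08%), no low-count filter (1.07% and 1.43%) and mitochondrial genes left out (3.18% and 3.59%), and in these fits the 7 genes were the same. It was 8 and 1 with at least 1 CPM in 3 libraries (5.37% and 6.13%), a filter that Hao2 failed, and 9 and 1 with counts divided by 4 (5.27% and 5.87%).

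**Figure D2:**
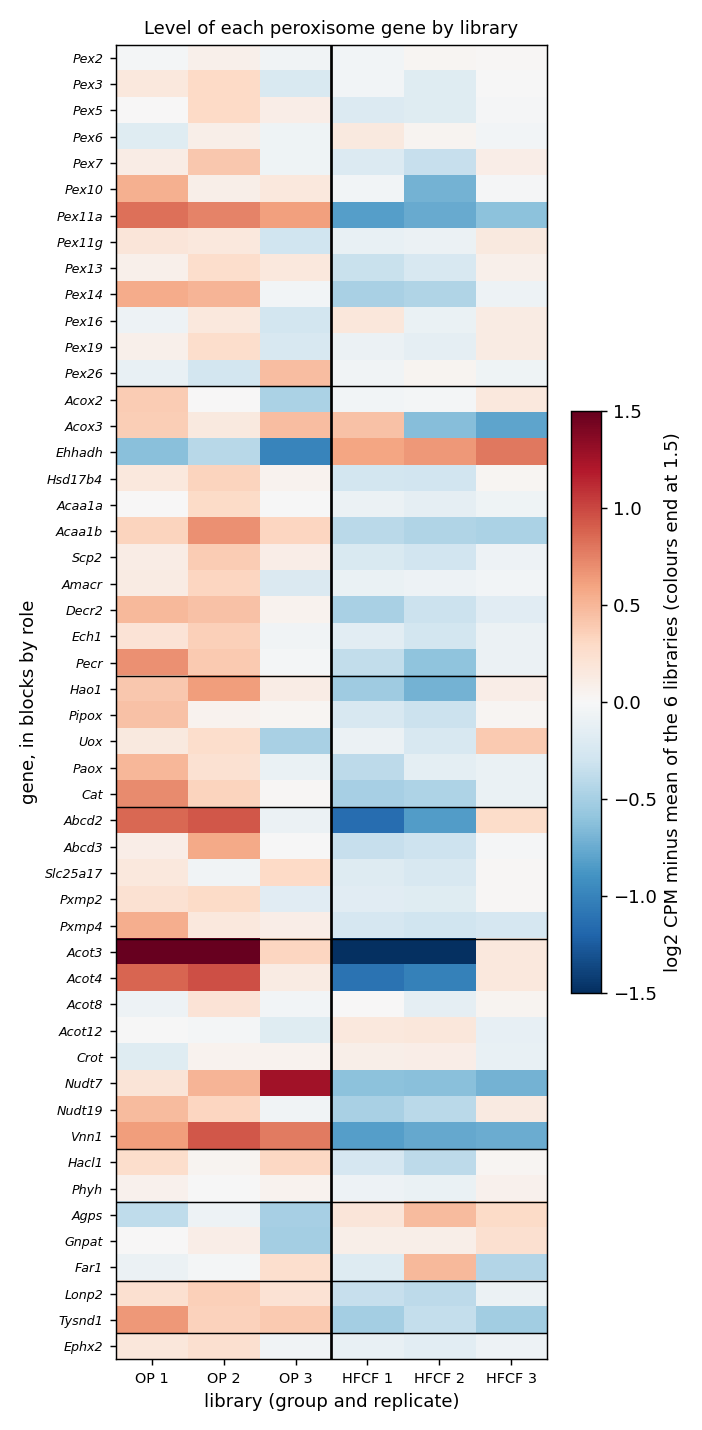
Level of 50 tested peroxisome genes (rows, in blocks by role) in the 3 OP and 3 HFCF libraries, as log2 CPM minus the mean of the 6 libraries; red is above and blue below that mean. Ehhadh runs opposite to Pex11a, Acaa1b and Vnn1 in all libraries, and OP 3 and HFCF 3 are paler than the others for Acot3, Acot4 and Cat.

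Among the peroxins, Pex11a stood alone past the threshold. Pex11a, a membrane protein that elongates and divides peroxisomes, had 320, 301 and 276 CPM in OP and 102, 107 and 118 CPM in HFCF. The groups were well apart, with the lowest OP library more than 100 CPM above the highest HFCF library. The log2 fold change was 1.46 ± 0.137 (SE; edgeR adjusted p = 0.0029), and the gene kept its call with each library left out in turn, at 1.41 to 1.52. Per kilobase of transcript it led the 13 peroxins over all libraries, at 133 CPM per kb in OP and 48.6 CPM per kb in HFCF. In HFCF alone Pex16 was above it, with 70.4 CPM per kb in OP and 76.6 CPM per kb in HFCF. Pex11g, another member of this family, had 53.7, 52.8 and 38.5 CPM in OP and 43.8, 44.5 and 52.4 CPM in HFCF, and the groups overlapped. On the chromosome Pex11a lies next to Plin1, a lipid droplet gene of adipocytes, which was not a member and was chosen after its values were seen. Plin1 had 0, 129 and 36 counts in OP and 0, 0 and 45 counts in HFCF.

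The other 12 peroxins did not pass the test, and their log2 fold changes ran from -0.12 to 0.69. The import receptors had 86.1, 105 and 92.0 CPM in OP against 74.1, 75.5 and 84.8 CPM in HFCF for Pex5, which carries most matrix enzymes, and 49.5, 60.9 and 43.9 CPM against 39.9, 36.1 and 49.3 CPM for Pex7, which carries enzymes with the amino-terminal signal. Pex5 libraries did not overlap between the groups and Pex7 libraries did. In the docking complex, Pex14 had 60.9, 59.0 and 40.2 CPM in OP and 29.6, 30.4 and 39.4 CPM in HFCF (log2 fold change 0.69 ± 0.199, edgeR adjusted p = 0.0751), with OP replicate 3 just above HFCF replicate 3. Its partner Pex13 had a log2 fold change of 0.32 ± 0.152. Of the ubiquitin ligases that recycle the receptor, Pex2 was at 31.1 ± 1.58 CPM in OP and 31.1 ± 0.819 CPM in HFCF (SD, n = 3 each), and Pex10 at 6.69 ± 1.15 and 4.76 ± 1.19 CPM. The ATPase Pex6 and its membrane anchor Pex26 had log2 fold changes of -0.09 ± 0.136 and 0.09 ± 0.195. The genes that insert membrane proteins, Pex3, Pex16 and Pex19, were at 0.16 ± 0.168, -0.12 ± 0.157 and 0.08 ± 0.165. The median over all 13 peroxins was 0.16, and it was 0.29 without OP replicate 3. Adding the mitochondrial share to the fit gave -0.04.

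In beta-oxidation, enzymes of neighbouring steps went opposite ways. Ehhadh, the L-bifunctional protein that hydrates and then dehydrogenates the shortened acyl chain, had 359, 413 and 278 CPM in OP and 834, 869 and 959 CPM in HFCF. Every OP library was below 0.5 times the lowest HFCF library. The log2 fold change was -1.34 ± 0.18 (edgeR adjusted p = 0.00762). Acaa1b, the thiolase that cuts off acetyl-CoA in the last step, had 3016, 3822 and 2971 CPM in OP and 1798, 1746 and 1711 CPM in HFCF. Its groups did not overlap and the HFCF libraries were close together, at a log2 fold change of 0.90 ± 0.173 (edgeR adjusted p = 0.0231). Ehhadh lost its call without HFCF replicate 1 (adjusted p = 0.0521 by edgeR) or HFCF replicate 2 (0.0577), and its log2 fold change stayed between -1.48 and -1.20 whichever library was dropped. Acaa1b lost its call without OP replicate 1 (edgeR adjusted p = 0.0643), OP replicate 2 (0.0698), HFCF replicate 1 (0.122) or HFCF replicate 2 (0.148), at 0.78 to 0.97.

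Acaa1a and Acaa1b are close copies, with 90.6% identity over 1649 aligned positions of their longest coding transcripts, so the split of reads between them is uncertain. Acaa1a had 500, 612 and 499 CPM in OP and 470, 455 and 477 CPM in HFCF, with a log2 fold change of 0.20 ± 0.144 that did not pass. With the counts of the pair summed, a choice made after seeing the data, the log2 fold change was 0.78 ± 0.174 (edgeR adjusted p = 0.0372). The sum was 3516, 4433 and 3470 CPM in OP and 2269, 2201 and 2188 CPM in HFCF. It does not depend on how the counted reads were split between the copies. How reads that match both copies were counted is not known, and the summed fit was not repeated with a library left out.

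Hsd17b4, the D-bifunctional protein that carries out the same middle steps as Ehhadh for branched chains and bile acid precursors, had 420, 473 and 389 CPM in OP and 310, 308 and 385 CPM in HFCF. OP replicate 3 and HFCF replicate 3 were next to each other, and the log2 fold change of 0.36 ± 0.155 did not pass (edgeR adjusted p = 0.198). Of the oxidases that open the pathway, Acox2, for bile acid precursors, was at 101 ± 29.2 CPM in OP and 103 ± 7.94 CPM in HFCF, and Acox3, for branched chains, at 23.9 ± 2.61 and 16.3 ± 8.22 CPM (SD, n = 3 each). The groups overlapped for both. Scp2, whose gene encodes a thiolase and a sterol carrier, was at 2705 ± 306 CPM in OP and 2051 ± 154 CPM in HFCF (edgeR adjusted p = 0.182). Among auxiliary enzymes for unsaturated chains, Decr2, a dienoyl-CoA reductase, had 243, 235 and 181 CPM in OP and 124, 139 and 155 CPM in HFCF. It lay just outside the threshold (log2 fold change 0.66 ± 0.163, edgeR adjusted p = 0.0509) and passed under 6 of 18 alternatives. Pecr, an enoyl-CoA reductase, was at 0.72 ± 0.213 and Ech1, a dienoyl-CoA isomerase, at 0.36 ± 0.155 on the log2 scale, and neither passed by edgeR. DESeq2 called Pecr higher, and voom with quality weights called both higher. Amacr, which converts branched chains to the form the oxidases accept, was at 0.16 ± 0.16.

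**Figure D3:**
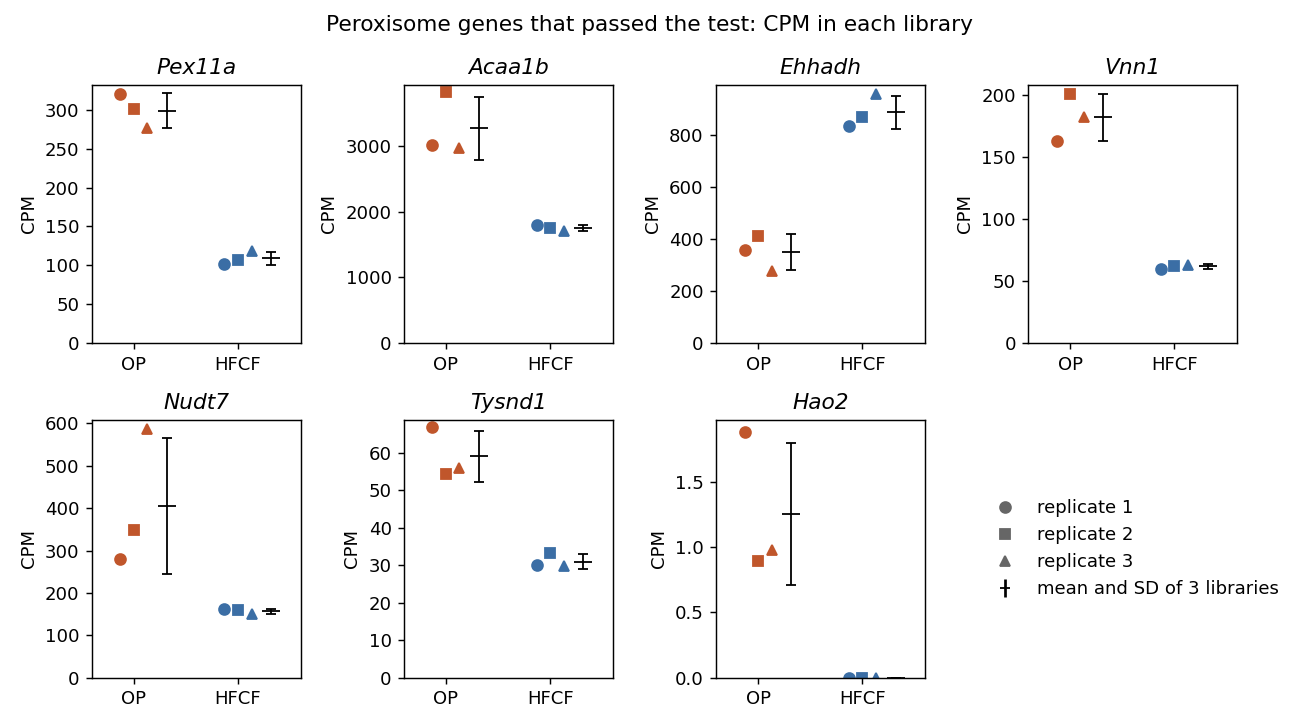
CPM (y axis, from 0) of the 7 peroxisome genes that passed the test in each OP and HFCF library, with the mean and SD of 3 libraries beside the points. OP lies above HFCF for 6 genes and below it for Ehhadh, and the OP 3 library of Nudt7 stands apart at 587 CPM.

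Promoter windows of 4 of these genes are shown because the genes rose or fell beyond the spread between libraries while sharing an organelle, 3 of them as genes that rose and Ehhadh as the one that fell. Each runs 5′ to 3′ over the 250 bases before the RefSeq transcript start on GRCm38.p6, at chr7:79743132-79743381 for Pex11a, chr9:119157094-119157343 for Acaa1b, chr16:21787835-21788084 for Ehhadh and chr3:98893231-98893480 for Hao2, all on the minus strand. This build is older than GRCm39, which the submitters name. Capitals mark matches on either strand to the nuclear receptor motif AGGTCA, the TATA box TATAAA, the CCAAT box or the GC box GGGCGG.
Pex11a: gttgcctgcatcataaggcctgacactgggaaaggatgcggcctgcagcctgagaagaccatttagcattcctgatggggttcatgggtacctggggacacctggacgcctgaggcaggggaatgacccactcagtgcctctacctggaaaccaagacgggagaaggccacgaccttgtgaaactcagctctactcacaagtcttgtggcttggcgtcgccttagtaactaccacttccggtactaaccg
Acaa1b: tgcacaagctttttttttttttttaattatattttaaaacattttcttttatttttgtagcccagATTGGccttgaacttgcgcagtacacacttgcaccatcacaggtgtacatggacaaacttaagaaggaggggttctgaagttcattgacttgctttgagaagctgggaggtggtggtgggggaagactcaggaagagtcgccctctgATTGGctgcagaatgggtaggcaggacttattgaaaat
Ehhadh: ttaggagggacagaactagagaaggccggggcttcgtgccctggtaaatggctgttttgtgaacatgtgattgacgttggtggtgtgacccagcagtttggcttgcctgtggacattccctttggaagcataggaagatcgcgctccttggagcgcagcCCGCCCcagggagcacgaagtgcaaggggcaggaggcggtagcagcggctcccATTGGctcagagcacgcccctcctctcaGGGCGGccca
Hao2: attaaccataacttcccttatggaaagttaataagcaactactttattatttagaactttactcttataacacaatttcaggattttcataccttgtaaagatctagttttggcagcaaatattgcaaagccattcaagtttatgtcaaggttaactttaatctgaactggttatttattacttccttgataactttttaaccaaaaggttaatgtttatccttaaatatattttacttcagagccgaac

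The 4 windows differed in base composition, with 55.6% G and C for Pex11a, 41.6% for Acaa1b, 60.4% for Ehhadh and 28.4% for Hao2, against a median of 52.4% over 32851 windows. RefSeq windows were at hand for 45 of the 53 genes. The receptor motif AGGTCA was in a window of 7 of these 45 genes (15.6%), against 15.8% of 27025 genes, and in none of the 6 called genes with a window. The direct repeat of this motif with 1 base between its parts, in a form that leaves the fourth base of each part free, was in 0 of 45 against 0.4% of all genes, on either strand. CCAAT was in 21 of 45 (46.7%, against 37.5% of all genes) and GGGCGG in 29 of 45 (64.4%, against 35.4%). TATAAA was in 4 of 45 (8.89%, against 14.3%). The windows cover only the 250 bases before the start, and binding sites further away were not searched.

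Of the 6 tested oxidases outside beta-oxidation, catalase included, edgeR called Hao2 alone, and none of the other 5. Hao2, a hydroxyacid oxidase of long-chain substrates that is best known from kidney, had 113, 57 and 47 counts in OP and 0 in each HFCF library. The OP levels were 1.88, 0.896 and 0.978 CPM. Set against a floor of 3 counts in every HFCF library, their mean was at least 21.6-fold higher, or at least 5.4-fold if each read pair gave 4 counts. The edgeR adjusted p was 0.00955, and it was 0.0535 without OP replicate 1, the highest library. Hao2 passed the filter through the OP libraries alone, so its call adds nothing to a count for the group, and with at least 1 CPM required in 3 libraries it was not tested and 0 oxidases were called. It was the lowest of the 51 tested genes per kilobase, at 0.611 CPM per kb in OP. Of 6 kidney tubule markers, 2 were at 0 in every library and the summed level was 0.271 to 0.5 CPM in OP and 0.512 to 0.788 CPM in HFCF. Hao2 is also known to be higher in female than in male mouse liver. Of 5 sex-linked genes none was called. The Y-linked genes Ddx3y, Kdm5d, Eif2s3y and Uty had counts in every library, with log2 fold changes of -0.27, -0.49, -0.29 and -0.56. Ddx3y was at 38.8 to 48.8 CPM in OP and 46.3 to 55.9 CPM in HFCF, and Uty was lower in each OP library than in each HFCF library. Xist, a marker of females, had 35, 29 and 26 counts in OP and 29, 33 and 0 counts in HFCF. The part of sex in the Hao2 levels was not tested.

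Catalase, encoded by Cat, degrades the hydrogen peroxide that these oxidases release. Cat had 1916, 1479 and 1186 CPM in OP and 831, 850 and 1099 CPM in HFCF. The groups were separate by a narrow margin between the replicates numbered 3, and the log2 fold change of 0.72 ± 0.216 did not pass (edgeR adjusted p = 0.0809). Hao1, the glycolate oxidase, had 129, 151 and 106 CPM in OP and 67.4, 60.0 and 105 CPM in HFCF (log2 fold change 0.73 ± 0.234, edgeR adjusted p = 0.0945), with the same near meeting of replicates numbered 3. Uox, the urate oxidase that mice keep and humans have lost, was at 886 ± 228 CPM in OP and 911 ± 216 CPM in HFCF. Pipox, which oxidises sarcosine and pipecolate, was at 268 ± 43.7 and 208 ± 27.5 CPM, and Paox, a polyamine oxidase, at 23.1 ± 4.66 and 17.1 ± 1.84 CPM (SD, n = 3 each). By edgeR, Cat, Hao1, Uox, Pipox and Paox did not pass, while DESeq2 called Cat and Hao1 higher and voom with quality weights called Cat, Hao1, Pipox and Paox higher.

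No membrane transporter or channel of 5 passed the test in edgeR, where 3 had an unadjusted p under 0.05, against 13% of all tested genes higher at that level, and DESeq2 called 2 of them higher. All 5 fitted log2 fold changes were above 0, with a median of 0.46, but those of Abcd2 and Pxmp2 were -0.18 and -0.14 once the mitochondrial share was a covariate. Pxmp4, a membrane protein of unsettled function, had 92.6, 70.8 and 68.0 CPM in OP and 53.4, 51.7 and 53.4 CPM in HFCF, and its groups did not overlap (0.55 ± 0.155, edgeR adjusted p = 0.0714). Abcd3, the transporter of branched-chain and bile acid precursors, was at 495 ± 109 CPM in OP and 359 ± 46.3 CPM in HFCF. Abcd2, a transporter of very long unsaturated chains, had 23.1, 24.2 and 12 CPM in OP and 5.74, 7.09 and 15.4 CPM in HFCF. HFCF replicate 3 was above OP replicate 3 there, and the log2 fold change was 1.07 ± 0.399, or 1.62 without HFCF replicate 3, where it passed. The channel Pxmp2, the most abundant of the 5 per kilobase, had 195, 204 and 148 CPM in OP and 148, 147 and 169 CPM in HFCF. Slc25a17, a carrier of coenzyme A and other cofactors, was at 34.0 ± 4.1 and 28.1 ± 2.75 CPM.

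Enzymes of acyl-CoA hydrolysis and coenzyme A turnover held the largest fold changes outside Hao2. Vnn1, a pantetheinase that recovers pantothenate from the breakdown of coenzyme A and acts outside the peroxisome, had 163, 201 and 182 CPM in OP and 59.8, 62.2 and 63.1 CPM in HFCF. The HFCF libraries were within 4 CPM of each other, and the log2 fold change was 1.56 ± 0.138 (edgeR adjusted p = 0.00229), kept with each library left out at 1.49 to 1.64. Nudt7, a hydrolase of coenzyme A inside peroxisomes, had 280, 349 and 587 CPM in OP and 161, 159 and 150 CPM in HFCF. OP replicate 3 was the highest of the 3 OP libraries, unlike for most other genes of the organelle. The log2 fold change of Nudt7 was 1.37 ± 0.259 (edgeR adjusted p = 0.022), 1.0 without OP replicate 3, and its adjusted p was 0.125, 0.146 and 0.0553 without HFCF replicates 1, 2 and 3. Nudt19, a second such hydrolase, was at 34.6 ± 6.29 CPM in OP and 24.6 ± 5.99 CPM in HFCF and did not pass.

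The thioesterases split by gene. Acot3, which hydrolyses long-chain acyl-CoA, had 170, 168 and 73.7 CPM in OP and 17.4, 17.6 and 65.7 CPM in HFCF. Acot4, which acts on dicarboxylyl-CoA such as succinyl-CoA, had 257, 274 and 152 CPM in OP and 64.9, 69.6 and 156 CPM in HFCF. For both genes OP replicate 3 and HFCF replicate 3 lay side by side, while the other libraries were several-fold apart. The log2 fold changes were 2.03 ± 0.558 for Acot3 and 1.24 ± 0.365 for Acot4 (edgeR adjusted p = 0.0658 and 0.0781). Both passed without HFCF replicate 3, at 2.97 and 1.76. The 2 genes have 74.5% identity over 1265 aligned positions, and their summed counts gave 1.49 ± 0.417 (edgeR adjusted p = 0.0689). Acot8, which accepts many acyl-CoA chains, was at 23.6 ± 2.63 CPM in OP and 22.6 ± 1.53 CPM in HFCF. Acot12, a cytosolic acetyl-CoA hydrolase, was at 139 ± 9.24 and 154 ± 17.5 CPM (SD, n = 3 each). Crot moves shortened chains to carnitine for export to mitochondria. It had 463, 544 and 541 CPM in OP and 555, 561 and 483 CPM in HFCF, and the groups overlapped.

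Both peroxisomal proteases had OP libraries above all HFCF libraries, a pattern found in 15.8% of all tested genes. Tysnd1, which trims imported beta-oxidation enzymes, had 67.0, 54.3 and 56.1 CPM in OP and 30.0, 33.2 and 29.7 CPM in HFCF, a rise of 0.93 ± 0.141 on the log2 scale (edgeR adjusted p = 0.0114). By edgeR its adjusted p reached 0.0529 when OP replicate 1 was dropped, 0.0864 for HFCF replicate 1 and 0.085 for HFCF replicate 2, at log2 fold changes of 0.83 to 0.99. Lonp2, a chaperone and protease of the matrix, had 237, 257 and 232 CPM in OP and 158, 153 and 189 CPM in HFCF and lay outside the threshold (0.54 ± 0.141, edgeR adjusted p = 0.0581).

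None of the 3 genes of ether lipid synthesis passed by edgeR, and their log2 fold changes were -0.62, -0.26 and 0.05. Agps, which forms the ether bond, had 6.17, 7.61 and 5.68 CPM in OP and 9.10, 11.1 and 9.76 CPM in HFCF. Its OP libraries all lay below its HFCF libraries, at a log2 fold change of -0.62 ± 0.185 that did not pass (edgeR adjusted p = 0.0794). DESeq2 and voom with quality weights called Agps lower. Gnpat, the acyltransferase of the first step, had 31.6, 33.8 and 22.1 CPM in OP and 33.6, 33.7 and 37.2 CPM in HFCF. Far1, which supplies the fatty alcohol, was at 5.26 ± 0.683 CPM in OP and 5.08 ± 1.76 CPM in HFCF. In alpha-oxidation, which removes 1 carbon from phytanic acid, Phyh had 2038, 1949 and 2023 CPM in OP and 1853, 1827 and 2050 CPM in HFCF, and Hacl1 had 165, 141 and 170 CPM in OP and 115, 104 and 140 CPM in HFCF. Hacl1 libraries were apart by a small step and neither gene passed (log2 fold changes 0.40 ± 0.158 and, for Phyh, 0.07 ± 0.15). Ephx2, the soluble epoxide hydrolase found in cytosol and peroxisomes, had 1310, 1370 and 1123 CPM in OP and 1073, 1043 and 1100 CPM in HFCF (0.24 ± 0.151).

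Per kilobase of the longest annotated transcript, the order of levels was led by Acaa1b, at 1940 CPM per kb in OP and 1040 CPM per kb in HFCF. Phyh followed with 1390 and 1330 CPM per kb, then Scp2 with 1020 and 777 CPM per kb, Ephx2 with 623 and 527 CPM per kb and Cat with 584 and 355 CPM per kb. In HFCF livers Phyh was above Acaa1b, and in OP livers Acaa1b was above Phyh. Ehhadh had 117 CPM per kb in OP and 298 CPM per kb in HFCF, while Hsd17b4 had 159 and 125 CPM per kb. The lowest tested genes beside Hao2 were Far1, at 1.06 and 1.02 CPM per kb, and Agps, at 0.881 and 1.36 CPM per kb.

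Ratios of alternative genes of a step were taken within each library, where library size cancels out. They are ratios of CPM, not scaled by length, so only their change between groups is read. The ratio of Ehhadh to Hsd17b4 was 0.854, 0.873 and 0.715 in OP and 2.69, 2.83 and 2.49 in HFCF. That of Acaa1b to Acaa1a was 6.03, 6.25 and 5.95 in OP and 3.82, 3.84 and 3.58 in HFCF. That of Pex11g to Pex11a was 0.168, 0.175 and 0.139 in OP and 0.43, 0.416 and 0.443 in HFCF. The groups did not overlap in these 3 ratios and the spread within a group was small, also in the replicates numbered 3. The differences of the mean log2 ratio were -1.72, 0.70 and -1.42, each with an exact two-sided permutation p of 0.1, the smallest that 3 against 3 libraries allow, and 0.167 after adjustment over the 5 pairs tested. Ehhadh, Acaa1b and Pex11a were already called in these same libraries, so their ratios are not independent support. The ratio of Acaa1b to Acaa1a also depends on the uncertain split of reads between the copies. The ratios of Acox3 to Acox2 (0.187, 0.209 and 0.363 in OP and 0.264, 0.124 and 0.0987 in HFCF) and of Abcd2 to Abcd3 (0.0517, 0.0391 and 0.0288 in OP and 0.0175, 0.021 and 0.0374 in HFCF) overlapped between the groups. The exact permutation p was 0.3 and 0.2 for these ratios.

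**Figure D4:**
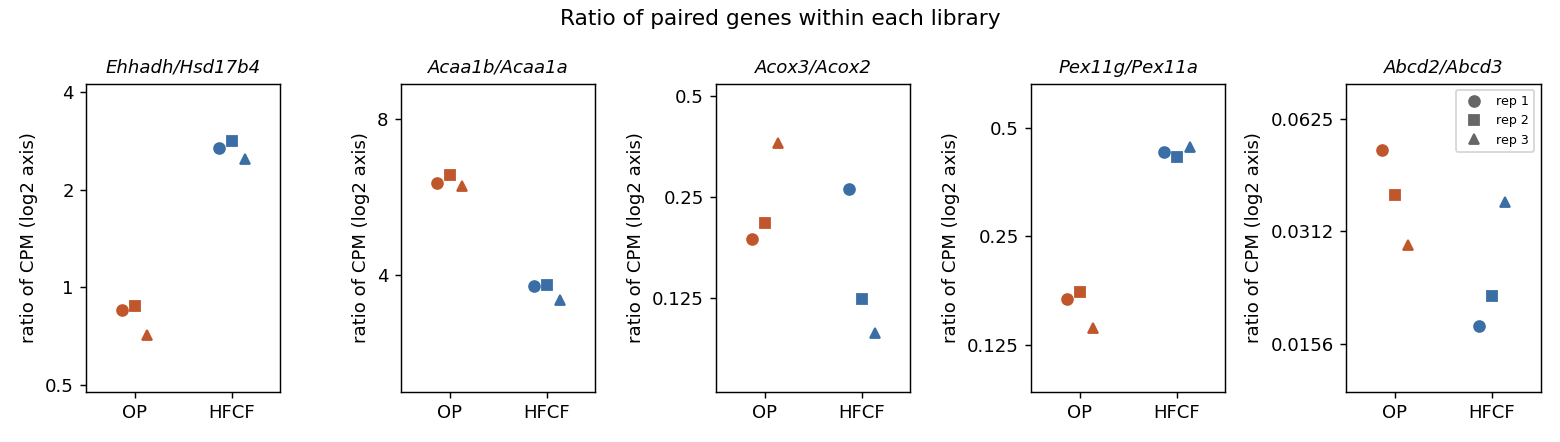
Ratio of the CPM of paired peroxisome genes within each OP and HFCF library, on a log2 axis that differs between panels. Ehhadh to Hsd17b4, Acaa1b to Acaa1a and Pex11g to Pex11a separate the groups, while Acox3 to Acox2 and Abcd2 to Abcd3 overlap.

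A list of 40 further peroxisomal genes, of which 39 were tested, was set beside these. In it 2 rose (5.13%, against 3.26% of all tested genes) and 1 fell (2.56%, against 3.47%), with a median log2 fold change of 0.21 and 30 of 39 above 0. Idh1, an NADPH-forming isocitrate dehydrogenase of cytosol and peroxisomes, had 244, 261 and 250 CPM in OP and 133, 133 and 149 CPM in HFCF (0.86 ± 0.128, edgeR adjusted p = 0.0106). Gstk1, a glutathione transferase, rose by 0.98 ± 0.177 and Far2, a fatty acyl-CoA reductase, fell by 1.37 on the log2 scale (edgeR adjusted p = 0.0197 and 0.0169). Idh1, Gstk1 and Far2 each lost the call without OP replicate 1, HFCF replicate 1 or HFCF replicate 2, with edgeR adjusted p of up to 0.11, 0.149 and 0.107.

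Of 22 PPAR-alpha targets outside the peroxisome, 5 rose (22.7%, against 3.26% of all tested genes) and none fell by edgeR (against 3.47%). At an unadjusted p under 0.05, 9 were higher and 2 lower (against 13.0% and 12.2% of all tested genes), and DESeq2 called 9 higher and 2 lower (against 7.2% and 7.26%). Those that rose were Fabp1, a fatty acid binding protein (1.25 ± 0.206), Fgf21, a liver hormone (1.25 ± 0.303), Acsl1, an acyl-CoA synthetase (0.80 ± 0.16), and Cpt2 and Slc25a20 of the mitochondrial carnitine shuttle (0.71 ± 0.148 and 0.68 ± 0.156). By edgeR their adjusted p ran from 0.0143 to 0.0472, and all 5 lost the call without OP replicate 1, HFCF replicate 1 or HFCF replicate 2. Cpt2, Slc25a20, Fgf21 and Acsl1 also lost it without OP replicate 2, and Fgf21 without HFCF replicate 3. The largest edgeR adjusted p over these fits was 0.235. A pair of hydroxylase genes often used as markers of the receptor did not pass, Cyp4a10 with 2427, 1997 and 1528 CPM in OP and 1818, 1775 and 2051 CPM in HFCF, and Cyp4a14 with 2220, 2005 and 1066 CPM in OP and 2604, 2739 and 3448 CPM in HFCF. Cyp4a14 and Ehhadh were lower in each OP library than in each HFCF library, while Fabp1 and Acaa1b were higher.

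Among 9 receptor and coactivator genes, 1 rose (11.1%, against 3.26% of all tested genes) and 2 fell (22.2%, against 3.47%). Ppara, which encodes PPAR-alpha, had 33.1, 29.8 and 31.4 CPM in OP and 38.0, 35.8 and 45.4 CPM in HFCF and did not pass (edgeR adjusted p = 0.179). Its partner Rxra was at 0.15 ± 0.152 on the log2 scale. Pparg rose to 11.2, 9.92 and 18.2 CPM in OP, against 5.12, 2.91 and 6.72 CPM in HFCF (edgeR adjusted p = 0.0467, and above 0.05 without any library but HFCF replicate 3, up to 0.186). Ppargc1a, a coactivator of oxidative genes, fell to 4.62, 4.59 and 5.68 CPM in OP, against 23.7, 25.4 and 21.7 CPM in HFCF, and kept its call with each library left out. Med1, a mediator subunit that binds these receptors, fell by 0.86 on the log2 scale (edgeR adjusted p = 0.0184), and lost its call without OP replicate 1, HFCF replicate 1 or HFCF replicate 2 (up to 0.106).

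Markers of other cells moved with the groups in part. The summed level of 6 adipocyte markers was 109 to 298 CPM in OP and 19.6 to 57 CPM in HFCF, with 1 of 4 tested markers higher (Plin4). Most of that sum was Plin4 alone, with 122, 77.4 and 233 CPM in OP and 19.6, 21.0 and 52.3 CPM in HFCF. The defining marker Adipoq was at 0, 2.36 and 0.937 CPM in OP and 0, 0 and 0.297 CPM in HFCF. The sum of 5 erythroid markers was 192 to 414 CPM in OP and 941 to 1767 CPM in HFCF. Of these 5, 4 were lower (Hba-a1, Hba-a2, Hbb-bs and Hbb-bt), against 3.47% of all tested genes. The remaining marker, Alas2, was higher in every OP library than in every HFCF library (means of 63.1 and 50.3 CPM) and was not called. The sum of 8 macrophage markers was 128 to 216 CPM in OP and 231 to 307 CPM in HFCF, with none called. Hepatocyte markers summed to 60840 to 88780 CPM in OP and 38990 to 61870 CPM in HFCF, with 1 of 8 higher (Ttr) and 1 lower (Cps1). Alb was the largest part of the sum in each library, and the markers did not move together. Ttr, Apoa1, Cyp2e1 and Serpina1c were higher in every OP library than in every HFCF library. Cps1 (means of 674 CPM in OP and 1812 CPM in HFCF) and Tat (484 and 1367 CPM) were lower in every OP library. Alb and Fgb overlapped between the groups. The part of these shifts in the levels of peroxisome genes was not tested.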

How the data were processed

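The authors deposited whole-number counts for every gene in 6 libraries of mouse liver, as 1 table. Per the submitters' processing notes, cutadapt 1.9 and FastQC were used, with genome build GRCm39; for the aligner, the counter, strand use in counting and the annotation, the sources used here name none. Strand was kept in library preparation, per the labels' protocols. Samples were grouped by their descriptions. Symbols were matched on Ensembl identifiers (55141 of 55401). Overlaps and transcript lengths came from GENCODE M21, and promoter windows from RefSeq, both on GRCm38.

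Genes were filtered with filterByExpr (17394 of 27893 with any count), scaled by TMM and tested two-sided as OP minus HFCF with edgeR 4.0.16 in R 4.3.3. P-values were adjusted over all tested genes by the Benjamini-Hochberg method, and a gene was called at an adjusted p under 0.05. Each standard error is the log2 fold change over the root of its F statistic. SDs are over 3 libraries. Alternatives used DESeq2 1.42.0 and limma 3.58.1; paired ratios used scipy 1.17.1. On simulated counts for OP against HFCF over 17394 genes, edgeR called 69 of 100 genes changed 4-fold, 10 of 100 changed 2-fold and 5 of 17194 unchanged genes. Genes that share exon bases with an opposite-strand gene, such as Acaa1b with Dlec1 (224 bases, the only called gene concerned) and Acot3 and Acot4 with 4732463B04Rik, are uncertain while strand use is unknown. Exon bases shared on the same strand are uncertain whatever the strand use. These concern Hacl1 with Gm49387 (1540 bases), Acot3 and Acot4 with Gm49366 (396 and 33), Gnpat with Gm16163 (280) and Crot with Gm27941 (39), none of them called. The genes, lists and alternatives were chosen with earlier results of these data known. Values in every library are given for called genes and, per role, for the gene with the smallest p and the most abundant one per kilobase; others printed in full were chosen after their values were seen.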

Additional observations from a re-analysis of the deposited data

How the results depend on the processing

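Pex11a and Vnn1 passed under all 18 alternatives, Ehhadh under 15, Nudt7 under 14, Hao2 under 14 of the 17 that gave it a value, Tysnd1 under 13 and Acaa1b under 12. Over 917 alternative values of the 51 tested peroxisome genes, 21 lost a call, 61 gained a call and 49 changed sign, the last all in genes that edgeR had not called. The cause of these changes was not tested. Depth limits genes with few counts, such as Hao2, with 47 to 113 counts in OP and 0 in HFCF, and Dao and Acot5, with 0 in every library. The replicate numbers pair no samples by the labels, and the deviations of same-numbered libraries correlated at 0.0229, -0.126 and -0.164.

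Leaving out each library in turn gave 34 to 655 genes higher (0.186% to 3.55% of all tested genes) and 54 to 655 lower (0.295% to 3.55%). Of the 51, it gave 3 to 10 higher and 0 to 1 lower. Hao2 is among the 3 to 10 except without OP replicate 1. By role it gave 1 to 2 peroxins, 0 to 3 beta-oxidation enzymes, 0 to 2 oxidases and 0 to 1 transporters higher, and 0 to 1 beta-oxidation enzymes lower. In the lists set beside them it gave 0 to 3 further peroxisomal genes higher and 0 to 1 lower, 0 to 7 PPAR-alpha targets higher and 0 to 1 lower, and 0 to 1 receptor or coactivator genes higher and 1 to 3 lower. Log2 fold changes then ran from -0.04 to 0.03 for Pex2, -0.04 to 0.19 for Pex11g, -0.04 to 0.21 for Pex19, -0.16 to 0.23 for Pex26, -0.24 to 0.18 for Acox2, -0.20 to 0.17 for Uox, -0.04 to 0.11 for Acot8, -0.11 to 0.03 for Crot, -0.13 to 0.33 for Far1 and -0.09 to 0.23 for Cyp4a10.

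With DESeq2, 1252 genes were higher (7.2% of all tested genes) and 1262 lower (7.26%), against 567 (3.26%) and 603 (3.47%) by edgeR. Of the 51, 15 were higher and 2 lower, with 2 peroxins, 3 beta-oxidation enzymes, 3 oxidases and 2 transporters higher, 4 further peroxisomal genes higher and 2 lower, and 9 PPAR-alpha targets higher and 2 lower. With voom and quality weights, 1820 genes were higher (10.5% of all tested genes) and 1539 lower (8.85%), and 24 and 2 of the 51. Higher were 2 peroxins, 6 beta-oxidation enzymes, 5 oxidases, 3 transporters, 8 further peroxisomal genes and 12 PPAR-alpha targets. Lower was 1 PPAR-alpha target. Pex26 was at -0.04, Acox2 at 0.13, Uox at 0.15 and Far1 at -0.08. With the replicate number as a block, 87 genes were higher (0.5% of all tested genes) and 93 lower (0.535%). Of the 51, 2 were higher (Pex11a and Vnn1) and 0 lower. Called were 0 beta-oxidation enzymes, 0 oxidases, 0 further peroxisomal genes and 0 PPAR-alpha targets, and 1 receptor or coactivator gene was lower. With the mitochondrial share as a covariate, 134 genes were higher (0.77% of all tested genes) and 112 lower (0.644%). Of the 51, 3 were higher (Nudt7, Pex11a and Vnn1). Higher were 0 beta-oxidation enzymes, 0 oxidases, 0 further peroxisomal genes, 0 PPAR-alpha targets and 0 receptor or coactivator genes. Lower were 1 PPAR-alpha target and 1 receptor or coactivator gene. Log2 fold changes were then -0.08 for Pex2 and Nudt19, -0.16 for Pex3 and Amacr, -0.09 for Pex7, -0.38 for Pex11g, -0.30 for Pex19, -0.18 for Abcd2, -0.14 for Pxmp2, -0.06 for Acot8, 0.10 for Crot, -0.33 for Cyp4a10 and -0.11 for Rxra.

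Without OP replicate 3 and HFCF replicate 3, 1704 genes were higher (9.65% of all tested genes) and 1259 lower (7.13%). Of the 51, 23 were higher, with 2 peroxins, 6 beta-oxidation enzymes, 4 oxidases and 4 transporters. In the other lists, 10 further peroxisomal genes and 14 PPAR-alpha targets were higher and 1 PPAR-alpha target was lower. Pex16 was at 0.01, Pex26 at -0.18, Acox2 at 0.24, Uox at 0.36 and Far1 at -0.24. Pex11g was at 0.27, Pex19 at 0.29, Crot at -0.15 and Cyp4a10 at 0.30. With no low-count filter, 298 genes were higher (1.07% of all tested genes) and 400 lower (1.43%). Then 1 PPAR-alpha target and 0 receptor or coactivator genes were higher. With at least 1 CPM in 3 libraries, 2 beta-oxidation enzymes and 0 oxidases were higher (5.37% of all tested genes) and 1 PPAR-alpha target lower (6.13%). With counts divided by 4, 2 beta-oxidation enzymes were higher (5.27% of all tested genes) and 1 PPAR-alpha target lower (5.87%). With total counts, 3 PPAR-alpha targets were higher (2.4% of all tested genes) and 1 lower (3.08%). With upper quartile scaling 1 PPAR-alpha target was lower (3.86% of all tested genes), and with RLE scaling 0 receptor or coactivator genes were higher (2.92%). The Pex2 log2 fold change was 0.0008 by edgeR, -4e-05 with total counts, -0.00011 with the replicate block, -0.01 with DESeq2, RLE scaling, no filter or mitochondrial genes left out, -0.02 with counts divided by 4, -0.03 with the 1 CPM filter and -0.04 with upper quartile scaling. Counting Acox2 and Acox3 with the oxidases changed no count.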
